A study of Mus musculus with 96 samples.

Results

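The enzymes of glycolysis and gluconeogenesis were followed along the mouse nephron as 34 genes chosen by name, out of 54532 genes in the deposited table. They comprise 21 genes of the glycolytic chain including lactate dehydrogenase (Hk1, Hk2, Hk3, Gpi1, Pfkl, Pfkm, Pfkp, Aldoa, Aldoc, Tpi1, Gapdh, Pgk1, Pgam1, Pgam2, Eno1, Eno2, Eno3, Pkm, Pklr, Ldha and Ldhb), 8 genes of gluconeogenesis (Pck1, Pck2, Fbp1, Fbp2, G6pc, G6pc3, Pcx and Slc37a4), the fructose kinase Khk, and the 4 Pfkfb genes. All 34 were in the table. Aldoa was listed under 2 identifiers, of which the abundant one was used.

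RNA sequencing from ultra-low input was carried out on glomeruli and 14 tubule segments dissected by hand from kidneys of male C57BL/6 mice aged 6 to 8 weeks. Repeated pieces of a segment from a mouse were averaged, so that the 93 samples gave 53 combinations of mouse and segment. Each is called a mouse here and counted in n, although an animal may have given more than 1 segment. The proximal tubule was sampled as its initial convoluted part (PTS1, n = 3), the straight part in the cortical medullary rays (PTS2, n = 5) and the last straight stretch, from the outer stripe (PTS3, n = 3). The thin limbs were the short descending limb (DTL1, n = 3), the outer medullary (DTL2, n = 3) and inner medullary (DTL3, n = 3) parts of the long descending limb, and the ascending limb (ATL, n = 4). Distal groups were the thick ascending limb in medulla (MTAL, n = 3) and cortex (CTAL, n = 5), the distal convoluted tubule (DCT, n = 3), the connecting tubule (CNT, n = 3) and the cortical, outer medullary and inner medullary collecting ducts (CCD, n = 5, OMCD, n = 4, and IMCD, n = 3). Glomeruli came from 3 mice. No treatment or genotype separates the groups.

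Glycolysis splits glucose into pyruvate, which lactate dehydrogenase interconverts with lactate. Gluconeogenesis runs the reversible steps backwards and bypasses the irreversible ones with pyruvate carboxylase (Pcx), phosphoenolpyruvate carboxykinase (Pck1 in the cytosol, Pck2 in mitochondria), fructose bisphosphatase (Fbp1, Fbp2) and the glucose phosphatase (G6pc, G6pc3) that is fed by the transporter Slc37a4. The kidney is known as a gluconeogenic organ through its proximal tubule, which lives mainly on fatty acids, lactate and glutamine, whereas the distal nephron is known to use glucose and the inner medulla, poor in oxygen, to rely on anaerobic glycolysis.

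RefSeq promoter windows (GRCm38.p6, 250 bases before to 50 after a gene's start) were found for all 34 genes, in 55 windows because some genes have several starts. Each was searched on both strands for ACGTG, the core of the hypoxia response element, and for the HNF1 consensus motif. Only exact matches were counted, so a site that departs from the consensus was not found by this search. The ACGTG core was in 21 of the 55 windows, covering 17 of the 34 genes, and in 19.6% of all 32851 windows of the table. The HNF1 motif was in 0 of the 55 windows and in 20 of all windows (0.0609%). The windows below belong to the gluconeogenic genes with the largest proximal to distal differences. They hold no exact match to either motif, so that no letter is in capitals.

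Fbp1 (ENSMUSG00000069805), chr13:62888233-62888532, minus strand: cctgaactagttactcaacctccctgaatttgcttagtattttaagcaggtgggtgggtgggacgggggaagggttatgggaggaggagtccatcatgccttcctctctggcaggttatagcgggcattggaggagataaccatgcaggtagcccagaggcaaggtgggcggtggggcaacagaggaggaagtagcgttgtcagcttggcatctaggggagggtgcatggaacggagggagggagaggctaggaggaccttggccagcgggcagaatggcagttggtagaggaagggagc

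Pck1 (ENSMUSG00000027513), chr2:173152823-173153122, plus strand: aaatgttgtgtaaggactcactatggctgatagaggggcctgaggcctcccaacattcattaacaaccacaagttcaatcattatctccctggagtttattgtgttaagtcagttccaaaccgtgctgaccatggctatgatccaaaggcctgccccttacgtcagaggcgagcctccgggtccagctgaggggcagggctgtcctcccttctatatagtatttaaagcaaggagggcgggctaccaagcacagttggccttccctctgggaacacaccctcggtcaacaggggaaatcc

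G6pc (ENSMUSG00000078650), chr11:101367466-101367765, plus strand: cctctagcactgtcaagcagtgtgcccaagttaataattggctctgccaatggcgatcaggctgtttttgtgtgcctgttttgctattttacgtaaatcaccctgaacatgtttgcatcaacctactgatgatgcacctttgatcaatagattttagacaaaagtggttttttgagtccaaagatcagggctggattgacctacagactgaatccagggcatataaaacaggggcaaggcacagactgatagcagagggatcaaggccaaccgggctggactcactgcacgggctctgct

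The next windows belong to the lactate dehydrogenase and phosphoglycerate mutase genes, whose shares varied along the tubule. Capitals mark ACGTG or its reverse complement CACGT, which overlap where CACGTG is written. Ldha and Pgam1 hold the core in the windows shown, the window of a second Ldha start does not, and Ldhb and Pgam2 do not hold these letters in their windows.

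Ldha (ENSMUSG00000063229), chr7:46845554-46845853, plus strand: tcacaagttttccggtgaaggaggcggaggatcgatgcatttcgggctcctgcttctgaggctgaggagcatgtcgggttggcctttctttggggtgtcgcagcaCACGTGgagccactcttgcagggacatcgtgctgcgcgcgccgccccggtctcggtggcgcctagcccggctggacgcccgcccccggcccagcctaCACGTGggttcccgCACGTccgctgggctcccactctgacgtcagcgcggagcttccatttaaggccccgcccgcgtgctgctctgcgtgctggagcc

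Ldhb (ENSMUSG00000030246), chr6:142507908-142508207, minus strand: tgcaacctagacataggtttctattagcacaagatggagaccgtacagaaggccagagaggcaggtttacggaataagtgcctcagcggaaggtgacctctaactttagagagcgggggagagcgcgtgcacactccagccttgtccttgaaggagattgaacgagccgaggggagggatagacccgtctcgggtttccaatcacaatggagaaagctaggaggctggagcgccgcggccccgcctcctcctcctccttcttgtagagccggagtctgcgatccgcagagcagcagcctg

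Pgam1 (ENSMUSG00000011752), chr19:41911621-41911920, plus strand: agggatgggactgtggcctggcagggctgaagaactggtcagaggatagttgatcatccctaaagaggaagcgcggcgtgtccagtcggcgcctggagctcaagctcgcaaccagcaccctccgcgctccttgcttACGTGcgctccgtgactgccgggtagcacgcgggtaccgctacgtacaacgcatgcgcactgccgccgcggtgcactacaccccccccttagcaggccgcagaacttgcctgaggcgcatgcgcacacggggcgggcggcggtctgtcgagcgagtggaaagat

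Pgam2 (ENSMUSG00000020475), chr11:5803747-5804046, minus strand: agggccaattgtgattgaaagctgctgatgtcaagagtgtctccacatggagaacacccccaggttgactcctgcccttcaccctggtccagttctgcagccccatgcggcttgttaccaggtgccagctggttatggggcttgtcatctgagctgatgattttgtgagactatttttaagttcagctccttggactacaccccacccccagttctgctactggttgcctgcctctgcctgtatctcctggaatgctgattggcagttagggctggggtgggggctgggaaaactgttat

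Values are TPM (a measure of relative transcript abundance), which are scaled for gene length and to the same total in every sample and keep no read depth, so the depth behind each value is unknown. Defining markers of each group were at 100 TPM or more in every mouse of that group, with the exception of Slc14a1 in DTL3 at 0.22 to 0.41 TPM, where Aqp1 stood at 11150 to 12080 TPM. Some groups carried many genes not known from kidney at low levels: of 1459 odorant and vomeronasal receptor genes, 221 to 746 were at 1 TPM or more in every mouse of the glomerulus, DTL1, DTL2 and DTL3 and 15, 23, 517 and 588 in the 4 ATL mice, against 59 to 195 in OMCD, 3 to 19 in PTS1 and IMCD, and 0 to 5 in PTS2, PTS3 and from MTAL to CCD. Levels of a few TPM in those groups are therefore given as listed, and ATL results are given also without ATL mice 4 and 6. In such bulk samples fewer cells of a type and less RNA per cell cannot be told apart.

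Every one of the 34 genes differed among the 15 groups (limma F-test on log2(TPM + 1), adjusted p below 0.05, 34 of 34), but so did 93.9% of all 33793 genes tested. The size of the differences separated the genes. Group means spanned 3.45-fold for G6pc3, the widely expressed glucose phosphatase, 3.97-fold for Pgam1, 4.05-fold for Gapdh and 4.16-fold for Pgk1. Wide spans were 387-fold for Hk1, 820-fold for Pkm, 7315-fold for Pck1, 12940-fold for Pgam2, 29190-fold for Fbp1 and 54710-fold for G6pc. These wide ratios rest on low denominators. The lowest group means were 1.04 TPM for Hk1, 1.9 TPM for Pkm and at most 0.358 TPM for the other genes with wide spans named here. A mean of at least 10 TPM was reached in all 15 groups by 13 genes (Gpi1, Pfkl, Aldoa, Tpi1, Gapdh, Pgk1, Pgam1, Eno1, Ldha, Ldhb, G6pc3, Slc37a4 and Khk) and in no group by 4 (Hk2, Hk3, Eno2 and Pfkfb1). Gapdh, the glyceraldehyde phosphate dehydrogenase often used as a reference transcript, ranged from 484 ± 37.9 TPM (SD, n = 3) in the glomerulus to 1958 ± 43.4 TPM (SD, n = 3) in PTS1.

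**Figure D1:**
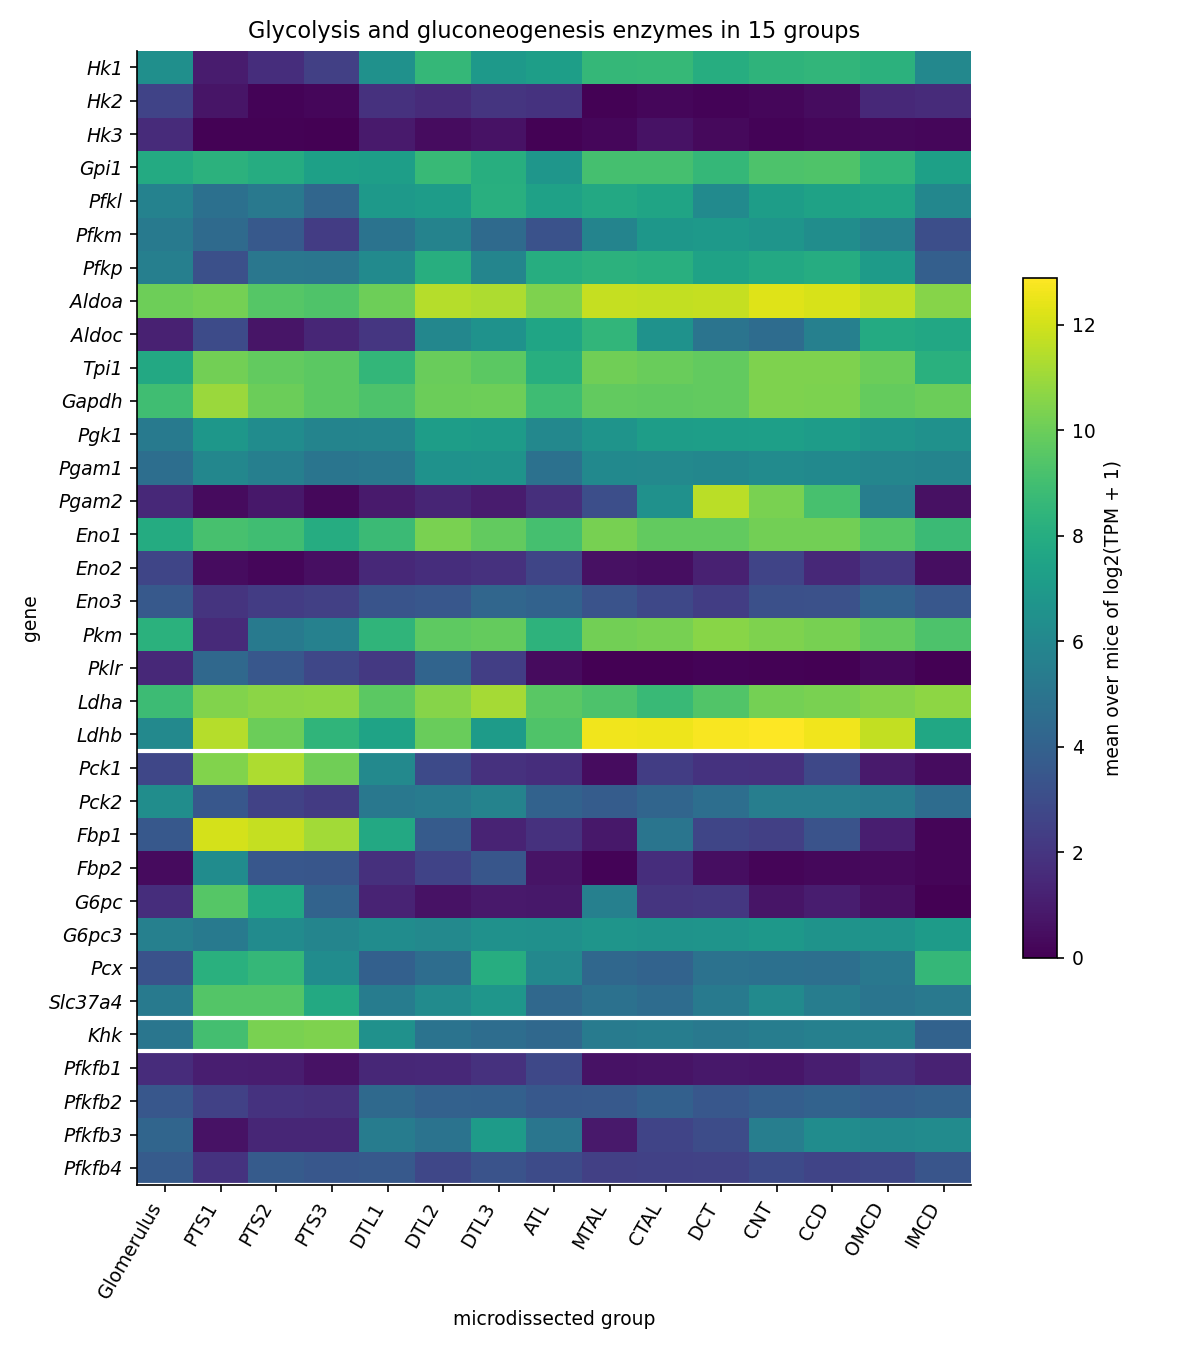
Mean over mice of log2(TPM + 1) for the 34 genes (rows, grouped by role with white lines between glycolysis, gluconeogenesis, Khk and the Pfkfb genes) in the 15 microdissected groups (columns). Fbp1, Pck1 and G6pc are bright in PTS1 and PTS2, whereas Hk1, Pkm and Ldhb are bright from MTAL to OMCD and Pgam2 from DCT to CCD.

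Proximal groups (PTS1 to PTS3) were set against distal groups (MTAL to IMCD) to ask where along the nephron the opposing pathways are expressed. Of the 34 genes, 8 were higher in the proximal groups, against 4.46% of all genes tested, and 13 were higher in the distal groups, against 15.3% of all genes. The calls required an adjusted p below 0.05 and a log2 difference of at least 1 (limma with Benjamini-Hochberg adjustment over 33793 genes). Among the 8 gluconeogenic genes 6 were higher proximally (Pck1, Fbp1, Fbp2, G6pc, Pcx and Slc37a4), Pck2 was higher distally and G6pc3 was not called, with a median difference of 3.81 log2 units. Among the 21 glycolytic genes only Pklr was higher proximally, 10 were higher distally (Hk1, Pfkl, Pfkm, Pfkp, Aldoa, Aldoc, Pgam2, Eno1, Pkm and Ldhb) and 10 were not called, with a median difference of -0.96. Khk was higher proximally, and Pfkfb2 and Pfkfb3 distally. The median difference was -0.75 over the 34 genes and -0.10 over all genes tested. After rescaling each mouse by a median ratio, 9 members were higher proximally and 12 distally, Eno1 was no longer called (log2 difference -0.39), and the proximal share of all called genes went from 22.6% to 47.8%. Without the distal mice above 40 TPM of Fbp1 (DCT mouse 1 and CTAL mouse 2) 21 genes were called. Without the 5 distal mice with the highest summed level of 6 proximal tubule markers, at 304 to 571 TPM (CTAL mice 1 and 2, DCT mouse 1 and CCD mice 3 and 4), 8 were called higher proximally and 13 distally. Markers of other cells differed between these groups too. The 6 leukocyte markers (Ptprc, Lyz2, C1qa, C1qb, Cd74 and Tyrobp, 3 to 6 of them at a mean of 1 TPM or more in the proximal groups and all 6 from MTAL to OMCD) summed to 13.6 to 107 TPM in proximal mice, 116 to 1040 TPM from MTAL to OMCD and 4.99 to 5.56 TPM in IMCD, and Ptprc was at 0 in PTS3. Sums of 5 intercalated cell markers were at most 6.27 TPM in proximal mice, at most 15.3 TPM in MTAL, CTAL and IMCD, and 782 to 5801 TPM from DCT to OMCD. The 6 endothelial markers (Pecam1, Kdr, Emcn, Plvap, Flt1 and Cdh5, 4 to 6 of them at a mean of 1 TPM or more in these groups) summed to 28.6 to 135 TPM in proximal mice, 127 to 500.2 TPM from MTAL to OMCD and 21.6 to 304 TPM in IMCD. The 7 markers of stroma and smooth muscle (Col1a1, Col1a2, Col3a1, Dcn, Acta2, Tagln and Pdgfrb, 0 at a mean of 1 TPM or more in the proximal groups, 2 to 7 in the distal) summed to 0.245 to 4.92 TPM and 2.92 to 80.7 TPM. The part of these cells in the differences was not tested.

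**Figure D2:**
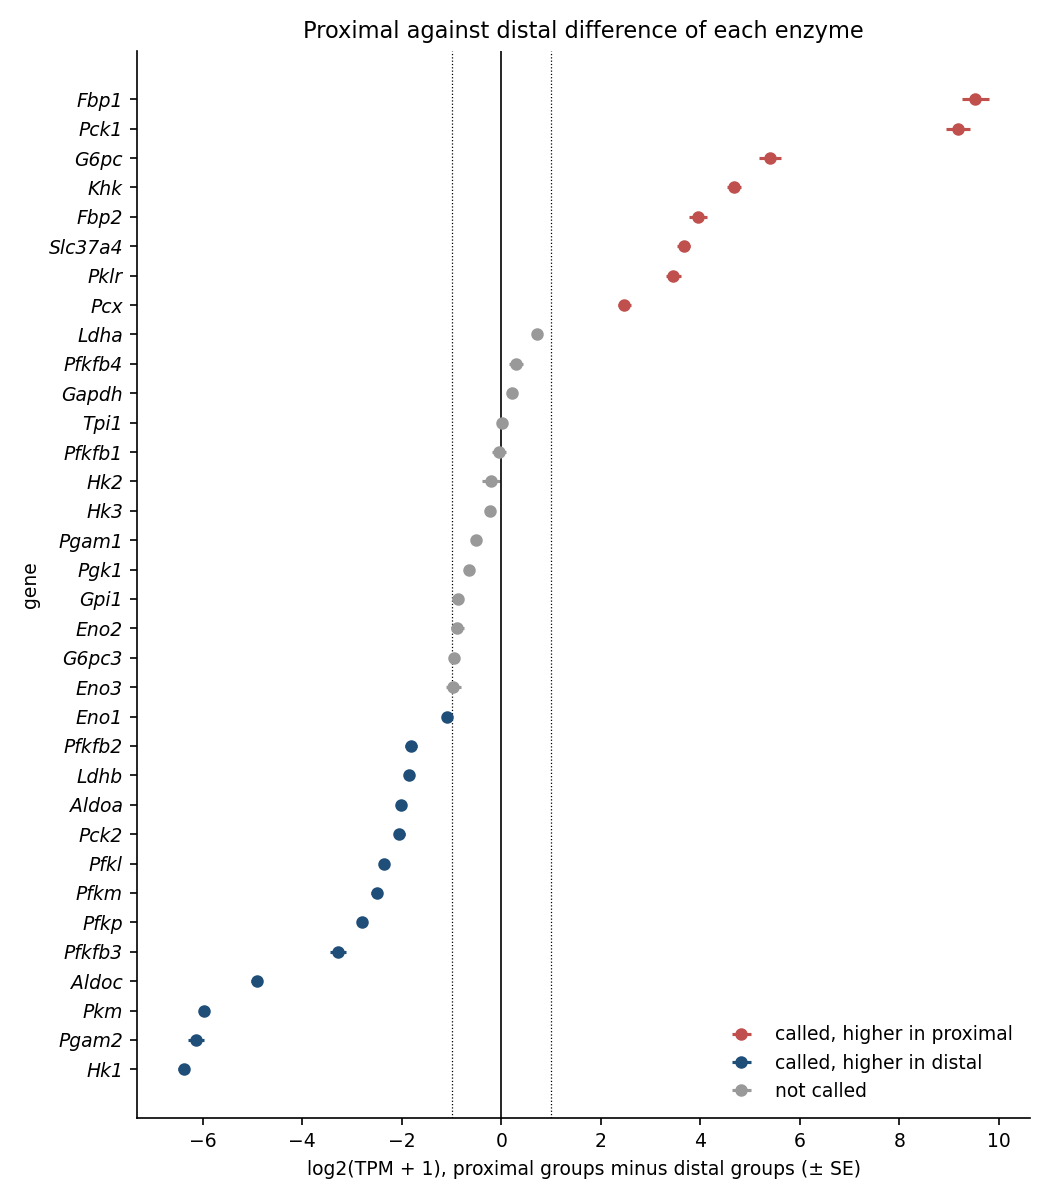
Difference in log2(TPM + 1) between proximal and distal groups (x axis, points with standard errors) for each of the 34 genes (y axis), with dotted lines at differences of 1. The 8 genes called higher in proximal groups lie between 2.47 (Pcx) and 9.53 (Fbp1), and the 13 called higher in distal groups between -6.38 (Hk1) and -1.09 (Eno1).

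Fbp1, the bisphosphatase of liver and kidney, was among the most abundant proximal transcripts, at 4771, 4658 and 3705 TPM in the PTS1 mice, 3250, 3332, 3685, 3287 and 3549 TPM in PTS2, and 2370, 1926 and 2350 TPM in PTS3. In the 26 distal mice it ranged from 0.0133 to 54.8 TPM with a median of 2.59, so the classes did not overlap. The log2 difference was 9.53 ± 0.28 (SE; limma adjusted p = 2.87e-31).

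Pck1, which commits oxaloacetate to glucose, had its highest group mean in PTS2, with 2092, 2023, 3393, 2551 and 3028 TPM. The PTS1 mice had 1173, 2183 and 1077 TPM and the PTS3 mice 1802, 1122 and 661 TPM. A PTS1 mouse stood above 2 PTS2 mice, and neither step was called (PTS1 minus PTS2 -0.88 ± 0.49 and PTS2 minus PTS3 1.22 ± 0.49, SE; limma adjusted p = 0.267 and 0.109). Distal mice had 0.105 to 13.6 TPM with a median of 1.71, far below every proximal mouse. The difference was 9.18 ± 0.25 log2 units (SE; limma adjusted p = 2.18e-32).

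G6pc, which releases free glucose, fell stepwise along the proximal tubule. It stood at 696, 864 and 629 TPM in PTS1, at 171, 321, 283, 155 and 174 TPM in PTS2 and at 13.8, 14.8 and 21.4 TPM in PTS3. No mouse of these groups overlapped with the next group. PTS1 exceeded PTS2 by 1.79 ± 0.43 log2 units (SE; limma adjusted p = 0.0013, and 0.0632 with a pseudocount of 0.1) and PTS2 exceeded PTS3 by 3.61 ± 0.43 (limma adjusted p = 1.47e-08).

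Outside the proximal tubule, G6pc was present in MTAL, at 74.1, 26.2 and 58.7 TPM, above every PTS3 mouse. The 5 CTAL mice had 2.72 to 3.45 TPM, and the difference of 3.62 ± 0.43 log2 units passed the test (SE; limma adjusted p = 2.37e-08). Because of MTAL, proximal and distal mice overlapped for G6pc, with a range of 13.8 to 864 TPM against 0 to 74.1 TPM and a difference of 5.41 ± 0.22 (SE; limma adjusted p = 9.8e-26). In the same MTAL mice Fbp1 was low at 1.03, 1.46 and 0.095 TPM, and Pck1 at 0.255, 0.755 and 0.105 TPM. Slc37a4 and Pcx were not as low, at 19.5 to 81.5 TPM and 13.9 to 700 TPM over the 26 distal mice, MTAL included. The summed level of 6 proximal tubule markers (Lrp2, Cubn, Slc34a1, Miox, Kap and Slc27a2) was 1.75, 16.9 and 2.07 TPM in the MTAL mice, against 72400 to 90110 TPM in PTS3.

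The bisphosphatase known from muscle, Fbp2, was concentrated in PTS1 at 83.3, 59.1 and 88.6 TPM. PTS2 mice had 10.5, 9.9, 9.77, 12.3 and 10.1 TPM and PTS3 mice 9.22, 12.5 and 8.67 TPM, and PTS1 exceeded PTS2 by 2.75 ± 0.37 log2 units (SE; limma adjusted p = 9.09e-08). Even there Fbp2 made up 1.72% of the summed Fbp1 and Fbp2 TPM (median of 3 mice). In DTL3 its level of 10.1, 14.7 and 6.44 TPM was above that of Fbp1, at 1.77, 0 and 3.97 TPM. Distal mice had 0 to 3.45 TPM, and the proximal to distal difference was 3.95 ± 0.19 (SE; limma adjusted p = 7.67e-23).

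Slc37a4, the transporter that brings glucose phosphate to the phosphatase, was at 649 to 722 TPM in PTS1, 637 to 776 TPM in PTS2 and 284, 203 and 204 TPM in PTS3. It remained at 19.5 to 81.5 TPM in the 26 distal mice. The PTS2 to PTS3 step of 1.60 ± 0.24 log2 units passed the test (SE; limma adjusted p = 2.67e-06), whereas PTS1 and PTS2 differed by -0.0033 ± 0.24 (limma adjusted p = 1).

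Pcx, which feeds pyruvate into gluconeogenesis and also refills the citric acid cycle, did not follow the other gluconeogenic genes. It had 319, 302 and 262 TPM in PTS1 and 336 to 456 TPM in PTS2, then 84.7, 74.8 and 72.9 TPM in PTS3. In the inner medulla it was at 228, 308 and 249 TPM in DTL3 and 215, 392 and 700 TPM in IMCD, where Fbp1 was at 0 to 3.97 TPM and Pck1 at 0.113 to 3.16 TPM. ATL mice had 117, 42.9, 67.1 and 51.1 TPM of Pcx, below every DTL3 mouse (DTL3 minus ATL 1.99 ± 0.27, SE; limma adjusted p = 9.93e-08). DTL2 mice, from the outer medulla, had 20.9 to 25.0 TPM and OMCD mice 23.4 to 53.8 TPM. Pcx differed by -3.44 ± 0.29 log2 units for DTL2 minus DTL3 and by -3.43 ± 0.27 for OMCD minus IMCD (SE; limma adjusted p = 7.32e-13 and 2.18e-14).

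The mitochondrial carboxykinase Pck2 ran opposite to Pck1. The 11 proximal mice had 2.32 to 11.7 TPM with a median of 5.12 and the 26 distal mice 9.94 to 54.2 TPM with a median of 28.7, a difference of -2.05 ± 0.11 log2 units (SE; limma adjusted p = 9.99e-21). Its highest levels were in the glomerulus, at 69.2, 90.6 and 79.8 TPM. Pck1 made up 99.2% to 99.8% of the summed Pck1 and Pck2 TPM in the 3 proximal groups and 1.40% to 16.4% in the distal groups (group medians). G6pc3 was at 38.4 to 79.1 TPM in proximal and 90.1 to 143 TPM in distal mice, short of the required difference at -0.95 ± 0.09.

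Khk, which phosphorylates fructose and feeds it into the lower part of the chain, rose rather than fell along the proximal tubule. PTS1 mice had 537, 511 and 554 TPM, PTS2 mice 1237, 1290, 1304, 1333 and 1178 TPM, and PTS3 mice 1313, 1287 and 1406 TPM. PTS2 exceeded PTS1 by 1.25 ± 0.27 log2 units (SE; limma adjusted p = 0.000328). The 26 distal mice had 13.3 to 54.8 TPM, with a proximal to distal difference of 4.67 ± 0.14 (SE; limma adjusted p = 3.53e-31).

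**Figure D3:**
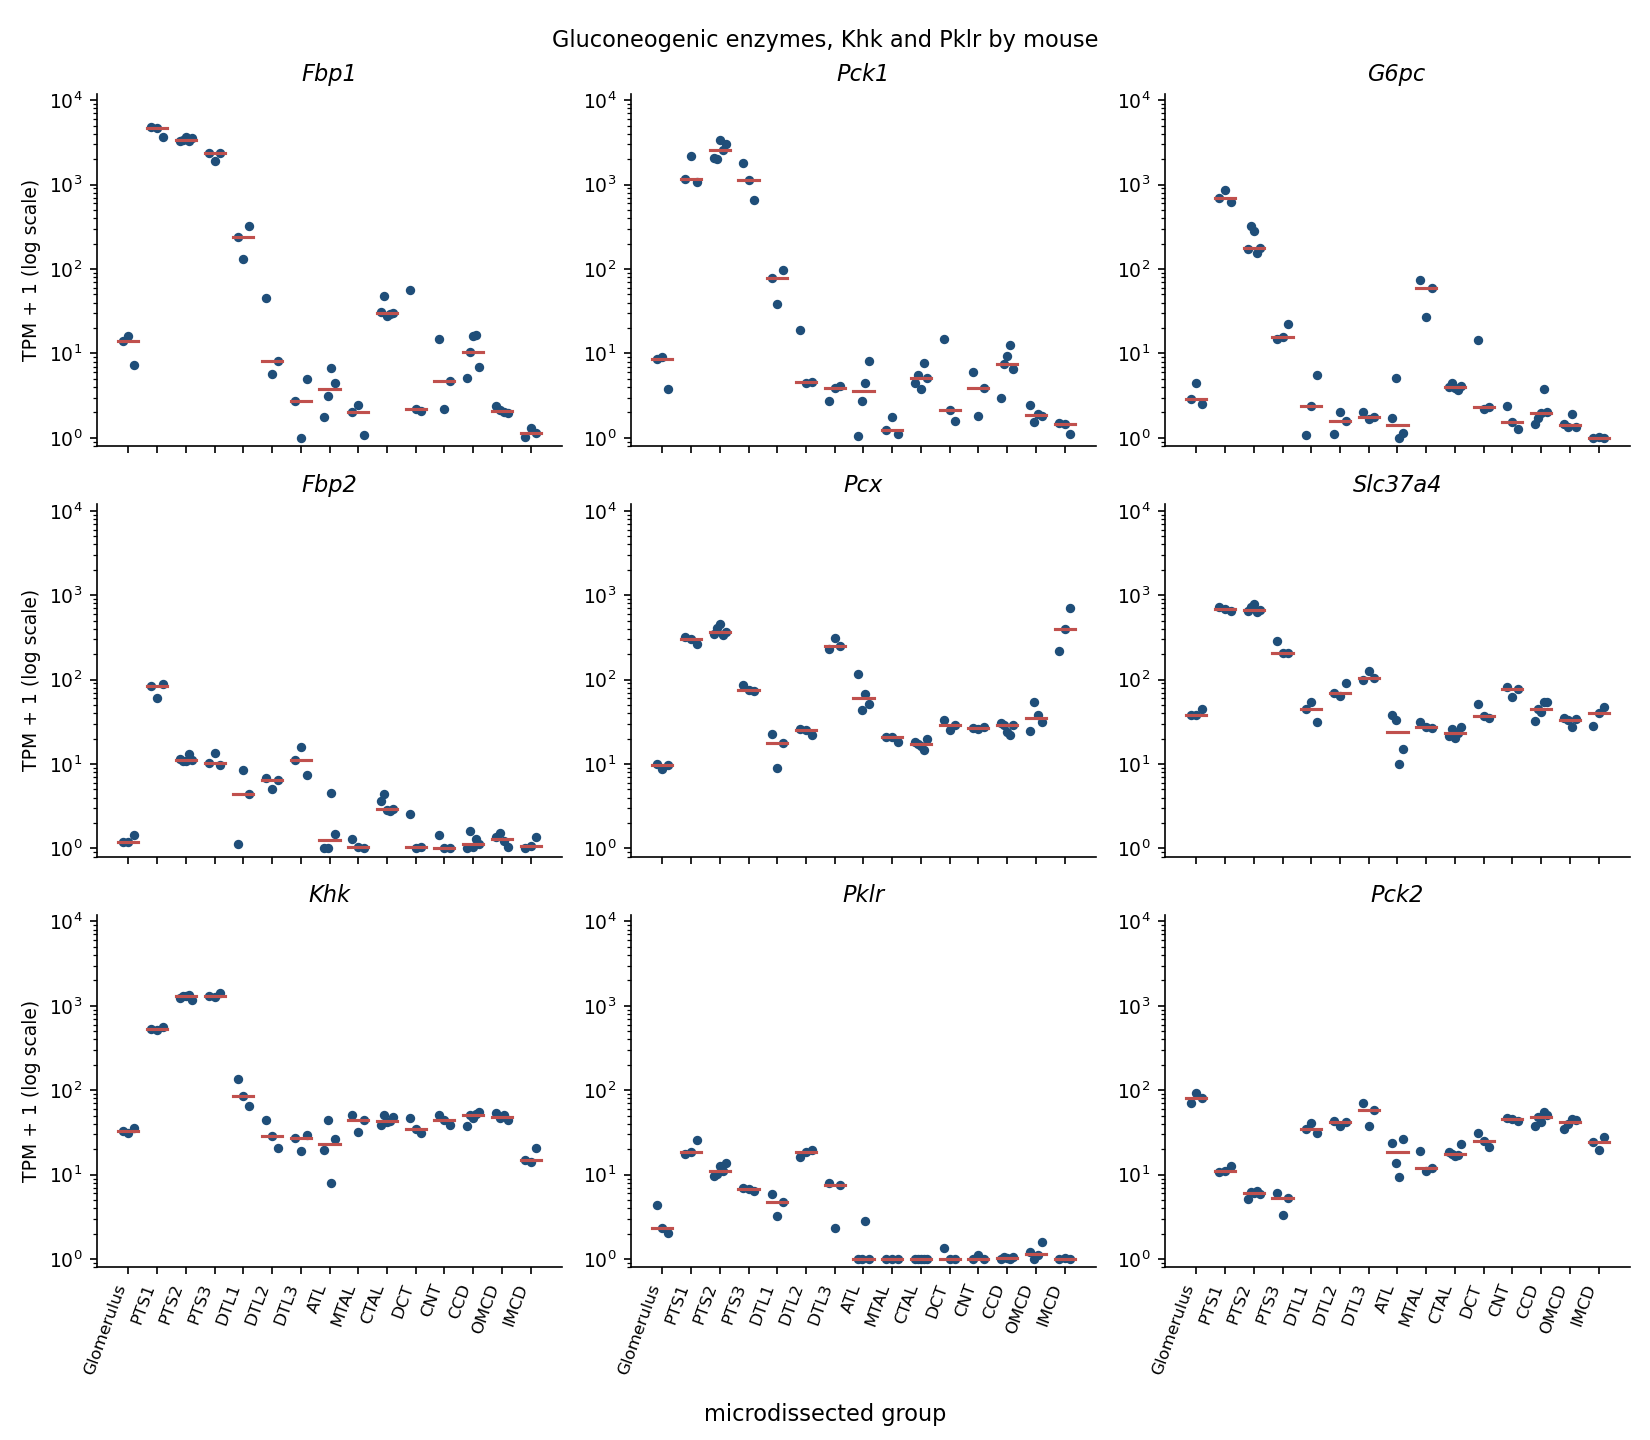
TPM + 1 on a log scale (y axis) in every mouse (points) of the 15 groups (x axis) for 7 gluconeogenic genes, Khk and Pklr, with red bars at group medians. G6pc falls from PTS1 to PTS3 and reappears in the 3 MTAL mice at 26.2 to 74.1 TPM, and Pcx is high in PTS1, PTS2, DTL3 and IMCD.

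Fbp1 also occurred, below the level of every proximal mouse, in DTL1, DTL2, DCT and CTAL, and is given here beside the proximal markers. Fbp1 was at 240.3, 132 and 321 TPM in DTL1, where the 6 proximal markers summed to 1245 to 4691 TPM, and at 44.1 TPM in DTL2 mouse 1, where they summed to 599 TPM. DCT mouse 1 had 54.8 TPM of Fbp1 and 314 TPM of the markers, against 1.22 and 1.11 TPM of Fbp1 and 22.2 and 30.1 TPM of the markers in the other DCT mice. The 5 CTAL mice had 27.0 to 46.9 TPM of Fbp1 with 101 to 481 TPM of the markers. At least 3 of the 6 markers had a mean of 1 TPM or more in each of these groups and in MTAL. The part of these marker transcripts in the Fbp1, Pck1 and Fbp2 values was not tested.

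Hk1, the hexokinase known for tight binding to mitochondria, made up 97.8% to 99.9% of the summed Hk1, Hk2 and Hk3 TPM in the distal groups (group medians). Proximal mice had 1.33, 1.41 and 0.38 TPM in PTS1, 1.32, 2.93, 2.17, 2.57 and 2.47 TPM in PTS2 and 5.20, 3.56 and 4.72 TPM in PTS3. MTAL mice had 376, 481 and 317 TPM, CTAL mice 359, 415, 359, 414 and 461 TPM, and the lowest distal values were in IMCD at 42.6, 65.8 and 88.3 TPM. Proximal and distal mice did not overlap, with a difference of -6.38 ± 0.11 log2 units (SE; limma adjusted p = 3.91e-39). Among thin limbs, Hk1 was highest in DTL2 at 387, 369 and 418 TPM.

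Hk2, the insulin-responsive isoform known from muscle, stayed at or below 6.7 TPM in all 53 mice. Its highest group mean was 5.22 TPM, in the glomerulus, where the mice had 6.7, 5.85 and 3.1 TPM. PTS1 mice had 0.73, 0.88 and 0.47 TPM of Hk2, and the 26 distal mice 0.01 to 5.48 TPM with a median of 0.175. The proximal to distal difference of -0.21 ± 0.18 did not pass the test (SE; limma adjusted p = 0.483). Hk3 did not exceed 2.95 TPM in any mouse.

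All phosphofructokinase genes, which encode the main control step of glycolysis, were higher in the mean of the distal groups. Pfkl differed by -2.35 ± 0.08, Pfkm by -2.50 ± 0.11 and Pfkp by -2.80 ± 0.10 log2 units (SE; limma adjusted p = 3.67e-28, 8.45e-25 and 4.09e-27). IMCD overlapped with the proximal groups for Pfkm and Pfkp. Its mice had 4.61, 7.31 and 11.8 TPM of Pfkm, against 18.2 to 22.4 TPM in PTS1, 10.0 to 12.2 TPM in PTS2 and 3.55 to 4.2 TPM in PTS3. They had 7.54, 17.6 and 19.7 TPM of Pfkp, against 7.05 to 8.57 TPM in PTS1, 26.9 to 44.7 TPM in PTS2 and 28.9 to 39.5 TPM in PTS3. IMCD was not tested against single proximal groups. The isoform mixture varied between segments. Pfkl made up 77.5% of the phosphofructokinase TPM in DTL3 and 72.9% in IMCD but 19.3% in DCT, where Pfkm reached 34.5% (medians of 3 mice). In PTS1 the shares were 46.0% Pfkl, 36.8% Pfkm and 14.1% Pfkp.

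Aldolase was mostly Aldoa, which rose from a median of 722 TPM in the proximal mice to 3459 TPM in the distal mice, a difference of -2.02 ± 0.06 log2 units (SE; limma adjusted p = 6.73e-30). Aldoc, the isoform known from brain, differed more, by -4.92 ± 0.11 (SE; limma adjusted p = 6.17e-35). It was at 340, 361 and 357 TPM in MTAL, 238, 242, 241 and 225 TPM in OMCD and 185, 189 and 277 TPM in IMCD. Cortical groups had less: 82.7 to 119 TPM in CTAL, 27.4 to 33.9 TPM in DCT, 19.2 to 28.7 TPM in CNT and 39.97 to 60.7 TPM in CCD. The proximal mice had 0.525 to 7.6 TPM, and no proximal mouse reached a distal one. Aldoc was thus higher in the medullary than in the cortical part of the thick limb, by 1.88 ± 0.23 log2 units, and of the collecting duct, where CCD against OMCD differed by -2.29 ± 0.21 (SE; limma adjusted p = 3.02e-08 and 8.11e-12).

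Of the genes of the reversible steps, Gpi1, Tpi1, Gapdh, Pgk1 and Pgam1 were not called between proximal and distal groups, with log2 differences of -0.86, 0.02, 0.22, -0.64 and -0.52. Eno1 was called at -1.09 ± 0.07 (SE; limma adjusted p = 6.89e-18), but not after median ratio rescaling. Eno2 and Eno3 were low, at most 10.6 and 27.9 TPM in any mouse, and were not called. Eno1 made up 93.7% to 99.4% of the enolase TPM in all 15 groups (group medians).

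Pgam2, the phosphoglycerate mutase known from skeletal muscle, was concentrated in a stretch around the DCT. It had 2800, 3252 and 3009 TPM in DCT, 1120, 1116 and 1531 TPM in CNT and 598, 511, 736, 480 and 541 TPM in CCD. On either side it tapered, to 60.9, 121, 111, 107 and 75.2 TPM in CTAL and 4.75, 7.29 and 11.5 TPM in MTAL, and to 18.6, 59.9, 70.6 and 49.8 TPM in OMCD and 0.377, 0.6 and 0.45 TPM in IMCD. All proximal mice had 1.06 TPM or less. Each distal step tested passed: CTAL exceeded MTAL by 3.59 log2 units, DCT exceeded CTAL by 5.05, CCD exceeded OMCD by 3.65 and OMCD exceeded IMCD by 4.96 (limma adjusted p = 1.85e-12, 4.95e-18, 4.31e-14 and 1.75e-17). DCT mice held 782 to 848 TPM of 5 intercalated cell markers (Atp6v1g3, Atp6v0d2, Foxi1, Slc4a1 and Slc26a4, all 5 at a mean of 1 TPM or more). CNT mice held 5096 to 5801 TPM of these markers, and their part in the Pgam2 values was not tested. The 4 skeletal muscle markers Ckm, Acta1, Mb and Myh4 summed to 0.035 to 0.06 TPM in DCT.

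Pgam1, the widely expressed mutase, stayed between 20.7 and 104 TPM in all mice, so the share of Pgam2 in their summed TPM followed Pgam2. It was 98.0% in DCT, 94.3% in CNT and 89.1% in CCD, 60.7% in CTAL and 47.7% in OMCD, and at most 10.6% in the other groups (group medians).

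The last step, pyruvate kinase, changed its gene along the proximal tubule. Pkm, the gene of most tissues, had 1.91, 2.16 and 1.63 TPM in PTS1, 30.9, 40.7, 39.1, 42.0 and 36.8 TPM in PTS2 and 61.2, 39.5 and 49.4 TPM in PTS3. The 26 distal mice had 354 to 1600 TPM with a median of 1196, none overlapping with proximal mice, and the difference was -5.97 ± 0.09 log2 units (SE; limma adjusted p = 5.25e-42). PTS1 minus PTS2 was -3.75 ± 0.18 (SE; limma adjusted p = 6.87e-22).

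Pklr, the pyruvate kinase of liver and red cells, had 16.7, 17.6 and 24.5 TPM in PTS1, 8.53 to 12.8 TPM in PTS2 and 5.45 to 5.9 TPM in PTS3. It was listed at 0 in 15 of the 26 distal mice and did not exceed 0.59 TPM in the others. The proximal to distal difference was 3.46 ± 0.14 log2 units (SE; limma adjusted p = 3.55e-25). In DTL2 Pklr was again present at 15.03, 17.36 and 18.65 TPM, beside 762 to 884 TPM of Pkm. Pklr thus gave 89.7% of the pyruvate kinase TPM in PTS1, 21.6% in PTS2, 9.93% in PTS3 and 2.07% or less elsewhere (group medians). Erythroid markers (Hba-a1, Hba-a2, Hbb-bs, Hbb-bt and Alas2) summed to 0.04 to 1.12 TPM in PTS1, with 4 of the 5 listed at 0 in every mouse, and to 0 to 0.34 TPM in DTL2.

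Ldhb, whose subunit is known to favour lactate oxidation, reached the highest TPM of the 34 genes. It had 5859 to 6424 TPM in MTAL, 5557 to 6157 TPM in CTAL, 6745 to 6958 TPM in DCT, 7316 to 7983 TPM in CNT and 6015 to 6945 TPM in CCD. There were 2932, 3231, 3482 and 3683 TPM in OMCD and 196, 207 and 211 TPM in IMCD, a fall of 4.05 ± 0.17 log2 units from OMCD to IMCD (SE; limma adjusted p = 1.36e-23). Along the proximal tubule it also fell, from 2877, 2745 and 2815 TPM in PTS1 through 910 to 1160 TPM in PTS2 to 358, 336 and 356 TPM in PTS3. Those steps were 1.46 ± 0.17 and 1.55 ± 0.17 log2 units (SE; limma adjusted p = 1.04e-09 and 8.4e-10). Ldhb was higher in distal than proximal groups (proximal minus distal -1.86 ± 0.08 log2 units, SE; limma adjusted p = 6.95e-24), although all IMCD mice were below every proximal mouse.

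Ldha, whose subunit is known to favour lactate production, varied less. It had 1493, 1292 and 1372 TPM in PTS1, 1693, 1664, 1529, 1585 and 1665 TPM in PTS2 and 1761, 1446 and 1753 TPM in PTS3, and its highest values were 2543, 2271 and 1985 TPM in DTL3. Distal mice ranged from 388 to 464 TPM in CTAL to 1392, 1981 and 1740 TPM in IMCD. The proximal to distal difference of 0.72 ± 0.07 log2 units was below the required size (SE; limma adjusted p = 5.99e-13).

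The Ldhb share of lactate dehydrogenase TPM was 83.0% to 93.7% from MTAL to CCD, 68.6% in OMCD and 10.8% in IMCD (group medians). In the proximal tubule it was 67.2%, 39.4% and 16.9% in PTS1, PTS2 and PTS3, and it was lowest in DTL3 at 5.81%. It was also low in the glomerulus at 13.4% and in DTL1 at 19.4%. The ATL, the thin ascending limb, had 46.7%, with 46.7%, 46.8%, 40.3% and 47.5% in mice 2, 3, 4 and 6.

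**Figure D4:**
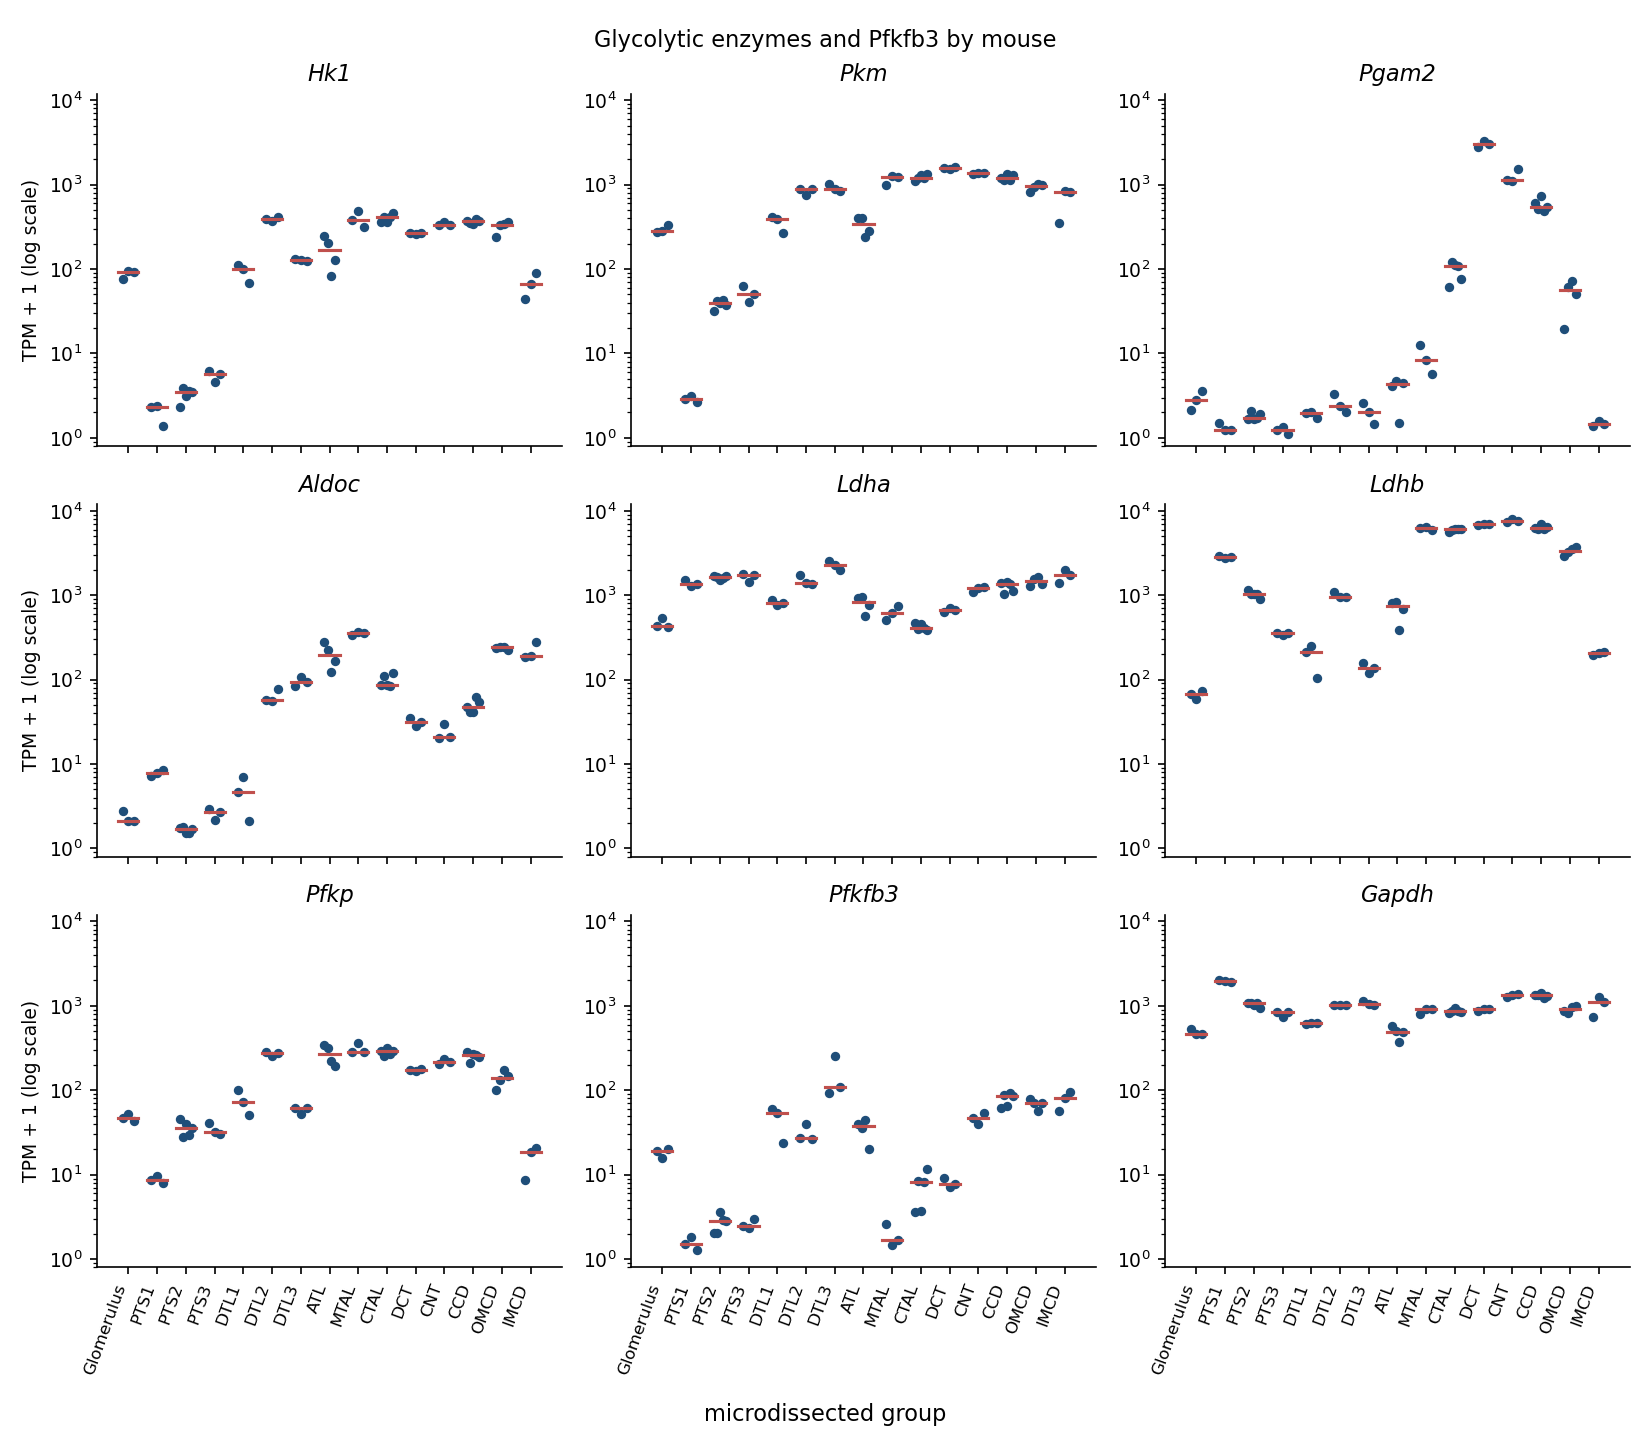
TPM + 1 on a log scale (y axis) in every mouse (points) of the 15 groups (x axis) for 8 genes of glycolysis and Pfkfb3, with red bars at group medians. Hk1 and Pkm are low in the proximal groups and high from DTL1 onward, Pgam2 peaks in DCT at 2800 to 3252 TPM, and Ldhb drops from OMCD to IMCD.

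**Figure D5:**
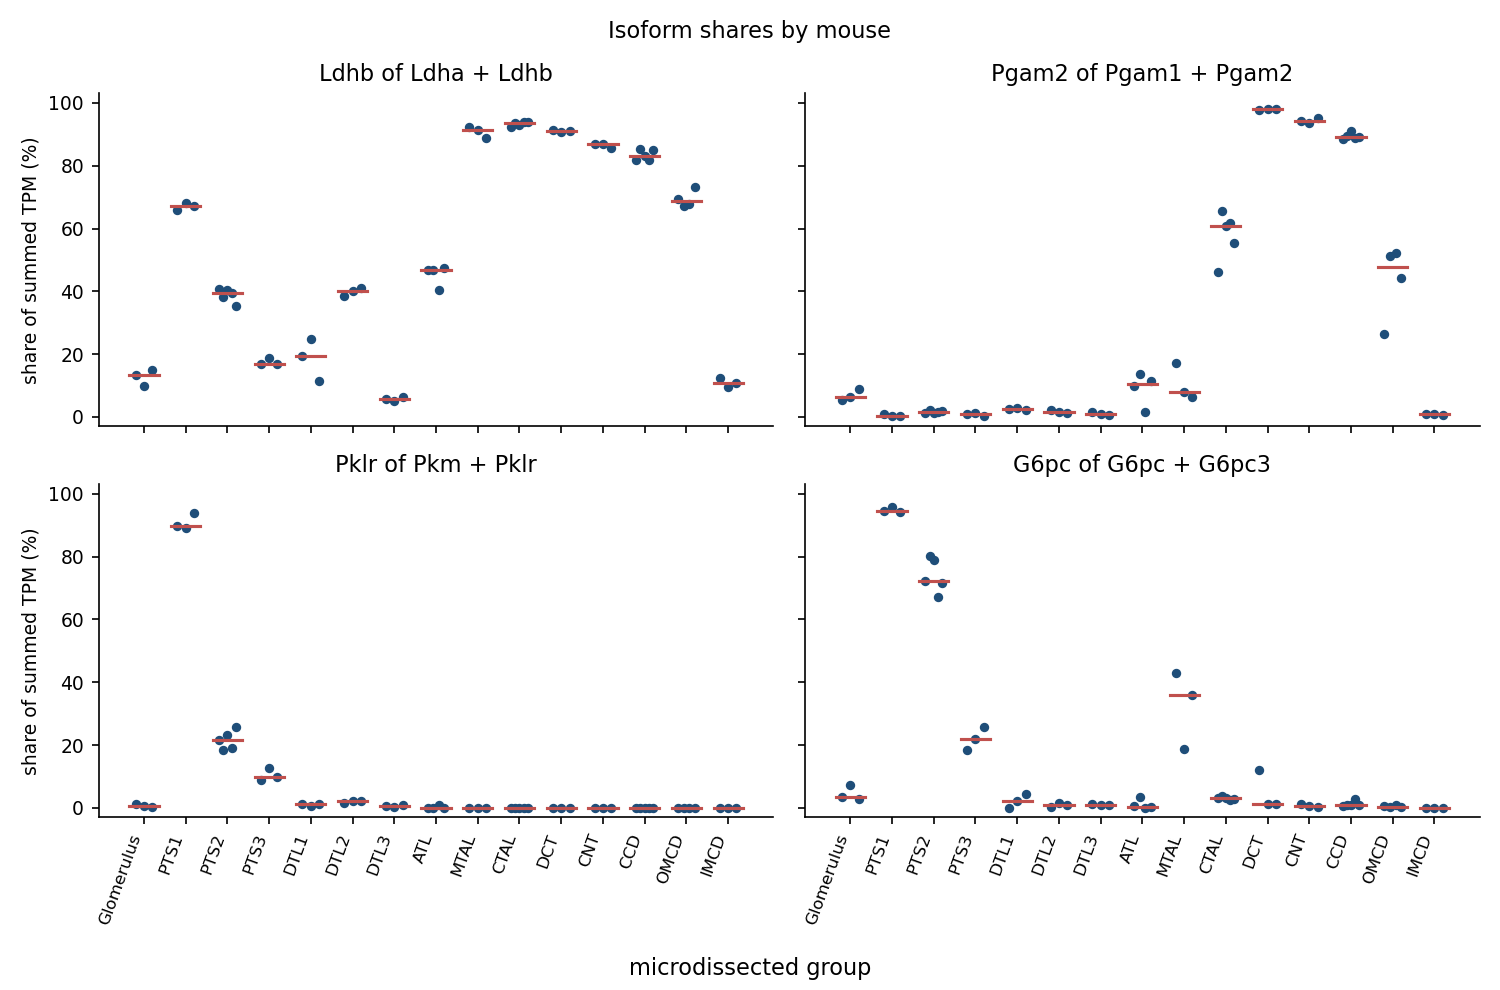
Share in percent of the summed TPM of 2 related genes (y axis) in every mouse (points) of the 15 groups (x axis), with red bars at group medians. The Ldhb share is above 80% from MTAL to CCD and 5.81% in DTL3, Pgam2 reaches 98.0% in DCT, Pklr 89.7% in PTS1, and G6pc 94.6% in PTS1 and 35.8% in MTAL.

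The Pfkfb enzymes make and break down the fructose bisphosphate that switches phosphofructokinase on and fructose bisphosphatase off. Pfkfb3, the isoform with the strongest kinase activity, had 0.27 to 2.57 TPM in the proximal mice and 0.46 to 1.61 TPM in MTAL. It stood in CTAL at 2.59 to 10.5 TPM, DCT at 6.17 to 8.18 TPM and CNT at 39.0 to 52.3 TPM, and at 60.6 to 90.9 TPM in CCD, 55.4 to 77.6 TPM in OMCD and 55.9 to 93.1 TPM in IMCD. DTL3 mice had 91.3, 252 and 107 TPM, of which the latter pair exceeded every distal mouse. Proximal and distal groups differed by -3.28 ± 0.16 log2 units (SE; limma adjusted p = 1.35e-22), with MTAL mice inside the proximal range. ATL minus MTAL was 4.20 ± 0.33 and DTL2 minus DTL3 was -2.16 ± 0.35 (SE; limma adjusted p = 1.63e-14 and 8.25e-06).

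Pfkfb2, known from heart and kidney, was also higher distally, at 9.89 to 19.2 TPM against 1.66 to 5.05 TPM, with a proximal minus distal difference of -1.81 ± 0.11 (SE; limma adjusted p = 7.16e-19). Pfkfb4 was not called between these classes (0.30 ± 0.13, limma adjusted p = 0.0731) but was higher in PTS2 than PTS1, at 9.17 to 16.9 TPM against 2.40 to 3.07 TPM (PTS1 minus PTS2 -1.81 ± 0.26, limma adjusted p = 4.19e-07). It was the leading Pfkfb gene in PTS2 and PTS3, with 70.3% and 72.2% of the family's TPM (group medians). Pfkfb1, known from liver, did not exceed 11.8 TPM in any mouse.

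Neighbouring segments were then compared in order along the tubule. From PTS1 to PTS2, 4 genes were higher in PTS1 (Aldoc, Ldhb, Fbp2 and G6pc), against 4.46% of all genes tested, and 4 in PTS2 (Pfkp, Pkm, Khk and Pfkfb4), against 5.1%. Fbp2 and G6pc act in the upper part of gluconeogenesis, whereas Pkm acts against it at the lower end. After median ratio rescaling 8 members were higher in PTS1 and 4 in PTS2, and the PTS1 share of all called genes went from 46.6% to 67%. From PTS2 to PTS3, 5 genes were higher in PTS2 (Pfkm, Ldhb, G6pc, Pcx and Slc37a4), against 3.94% of all genes, and 0 in PTS3, against 0.755%. At an unadjusted limma p below 0.05, 3 genes were higher in PTS3, none of them by 1 log2 unit. Rescaling moved the PTS2 share of all called genes from 83.9% to 62.8% and left 5 and 0 members called, while Pfkm was not called with a pseudocount of 5 (0.87).

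At the end of the proximal tubule, set against DTL2, PTS3 was higher for 6 genes (Pck1, Fbp1, G6pc, Pcx, Slc37a4 and Khk), against 3.85% of all genes, and DTL2 was higher for 19, against 36.2%. The 19 included Hk1, all phosphofructokinases, Aldoa, Aldoc, Pkm, Ldhb and Pfkfb3, with Hk1 at -6.21 ± 0.25 and Aldoc at -4.78 ± 0.25 log2 units (SE; limma adjusted p = 1.6e-24 and 1.47e-20). After rescaling the split was 9 and 11, with Hk2, Gpi1, Pgk1, Pgam1, Eno2, Eno3, Pklr and Ldhb no longer called, and the PTS3 share of all called genes went from 9.62% to 27.1%. Eno3 was not called without PTS3 mouse 2 (-0.94) or DTL2 mouse 1 (-0.85), and Eno2 without DTL2 mouse 3 (-0.96). With a pseudocount of 5, Hk2, Eno2 and Eno3 were not called (-0.41, -0.40 and -0.70). The endothelial markers summed to 1042 to 1922 TPM in DTL2 and 62.7 to 135 TPM in PTS3 (6 and 5 of 6 at a mean of 1 TPM or more). Leukocyte markers summed to 128 to 161 TPM in DTL2 and 38.1 to 49.0 TPM in PTS3, and those of stroma and smooth muscle to 12.5 to 26.9 TPM and 0.245 to 3.13 TPM. Their part in the difference was not tested.

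Within the long descending limb, DTL2 was higher for 5 genes (Hk1, Pfkm, Pfkp, Pklr and Ldhb), against 3.5% of all genes, and DTL3 for 3 (Pfkl, Pcx and Pfkfb3), against 6.08%. The largest of these steps were Pcx at -3.44 ± 0.29 and Ldhb at 2.84 ± 0.18 (SE; limma adjusted p = 7.32e-13 and 1.97e-16). Pfkl was not called without DTL2 mouse 3 (-0.96) or DTL3 mouse 1 (-0.95), after rescaling (-0.86) or with a pseudocount of 5 (-0.99). Rescaling moved the DTL2 share of all called genes from 36.5% to 50.7%. Leukocyte markers summed to 128 to 161 TPM in DTL2 and 9.26 to 17.9 TPM in DTL3, and proximal markers to 160 to 599 TPM and 14.5 to 47.4 TPM (6 of 6 at a mean of 1 TPM or more in both groups for both lists), and their part was not tested.

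DTL3 was set against ATL, which climbs beside it in the inner medulla. Here 14 genes were higher in DTL3, against 11.8% of all genes, and 3 in ATL (Pfkp, Aldoc and Ldhb), against 2.86%. Without ATL mice 4 and 6 the counts were 11 and 4, with Tpi1, Gapdh and Pgk1 below the required difference (0.998, 0.988 and 0.887). Calls that held in every alternative included Ldha at 1.53 ± 0.14, Pgam1 at 1.78 ± 0.13, Ldhb at -2.24 ± 0.17 and Pfkp at -2.16 ± 0.21 (SE; limma adjusted p = 3.45e-12, 5.64e-15, 2.05e-14 and 3.93e-11). Aldoc lost its call without DTL3 mouse 1 (-0.92) or 3 (-0.99) or ATL mouse 2 (-0.81) or 3 (-0.91), Pgk1 without DTL3 mouse 2 (0.98) or ATL mouse 4 (0.90), and Pfkm without DTL3 mouse 1 (0.96). Aldoc, Pfkm and Pklr were not called with a pseudocount of 5 (-0.97, 0.95 and 0.81), nor Aldoc with pieces averaged before the log (-0.998). After rescaling the counts were 11 and 5, Pfkm, Gapdh and Pgk1 were not called (0.94, 0.85 and 0.75), and the DTL3 share of all called genes went from 80.5% to 65.2%. The 6 endothelial markers summed to 655 to 1619 TPM in DTL3 and 153 to 248 TPM in ATL (6 of 6 at a mean of 1 TPM or more in both), and their part in the differences was not tested.

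From ATL to MTAL, where thin epithelium gives way to thick, 12 genes were higher in MTAL, against 5.43% of all genes, and 6 in ATL, against 22.6%. Without ATL mice 4 and 6 the counts were 8 and 5. With a pseudocount of 5 they were 10 and 2, with Hk2, Eno2, Pck1 and Pfkfb1 no longer called in ATL, nor Khk and Pgam2 in MTAL. The MTAL genes that held in every alternative were Gpi1, Pfkm, Aldoa, Tpi1, Pgam1, Pkm, Ldhb and G6pc, led by G6pc at -4.79 ± 0.45 and Ldhb at -3.26 ± 0.17 (SE; limma adjusted p = 3.53e-12 and 2.74e-20). Pgam2 lost its call without ATL mouse 4 (-0.78) or MTAL mouse 1 (-0.88). Khk lost its call without ATL mouse 2 (-0.98) or 4 (-0.54) or MTAL mouse 1 (-0.87) or 3 (-0.95). Pck1 lost its call without ATL mouse 4 (1.14) or 6 (0.86) or MTAL mouse 1 (1.28) or 3 (1.19), and with pieces averaged before the log (1.25, limma adjusted p = 0.063). Leukocyte markers summed to 10.3, 6.48, 379 and 18.6 TPM in ATL mice 2, 3, 4 and 6 and to 346 to 619 TPM in MTAL (6 of 6 at a mean of 1 TPM or more in both), and their part was not tested.

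Between medullary and cortical thick limb 8 of the 34 genes were called. MTAL was higher for 2 (Aldoc and G6pc), against 0.589% of all genes, and CTAL for 6 (Pfkm, Pgam2, Pck1, Fbp1, Fbp2 and Pfkfb3), against 2.57%. The Fbp1, Pck1 and Fbp2 differences (-4.27, -1.96 and -1.59) stood beside the proximal markers given above, at 101 to 481 TPM in CTAL and 1.75 to 16.9 TPM in MTAL. Intercalated cell markers summed to 0 to 0.09 TPM in MTAL and 8.23 to 15.3 TPM in CTAL. Erythroid markers summed to 0.055 to 0.105 TPM in MTAL and 0.145 to 78.4 TPM in CTAL (0 and 3 of 5 at a mean of 1 TPM or more). Leukocyte markers overlapped, at 346 to 619 TPM in MTAL and 489 to 1040 TPM in CTAL. The part of these markers in the MTAL to CTAL differences was not tested. Pfkm lost its call without MTAL mouse 1 (-0.90) or CTAL mouse 5 (-0.97) or after rescaling (-0.94), and Pck1 without MTAL mouse 3 (-1.84, limma adjusted p = 0.0562). With a pseudocount of 5 in place of 1, Pfkm, Pck1, Fbp2 and Pfkfb3 were not called (-0.97, -0.78, -0.52 and -0.85). From CTAL to DCT, CTAL was higher for 4 genes (Pfkl, Aldoc, Fbp1 and Fbp2), against 2.34% of all genes, and DCT for 1, Pgam2, against 2.01%. Pfkl fell from 152 to 213 TPM in CTAL to 69.6 to 75.4 TPM in DCT, by 1.33 ± 0.16 log2 units (SE; limma adjusted p = 1.46e-08). The Fbp1 difference was 2.69 (limma adjusted p = 0.000324). Fbp2 lost its call without DCT mouse 2 (1.16) or 3 (1.19) or with a pseudocount of 5 (0.42). Leukocyte markers summed to 489 to 1040 TPM in CTAL and 235 to 387 TPM in DCT, proximal markers to 22.2 to 314 TPM in DCT, and intercalated cell markers to 8.23 to 15.3 TPM in CTAL and 782 to 848 TPM in DCT (1 and 5 of 5 at a mean of 1 TPM or more). Their part was not tested.

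Along the collecting duct, CCD was higher than OMCD for 3 genes (Pgam2, Pck1 and Fbp1), against 1.73% of all genes, and OMCD for 2 (Hk2 and Aldoc), against 10.4%. The proximal markers beside Fbp1 and Pck1 summed to 115 to 571 TPM in CCD and 17.2 to 30.0 TPM in OMCD. Hk2 lost its call without CCD mouse 3 (-0.996) or 5 (-0.998) or OMCD mouse 3 (-0.80) or after rescaling (-0.92), and Hk2 and Pck1 with a pseudocount of 5 (-0.37 and 0.90). Endothelial markers summed to 127 to 216 TPM in CCD and 375 to 500.2 TPM in OMCD, those of stroma and smooth muscle to 57.5 to 65.5 TPM and 9.96 to 21.2 TPM, and those of intercalated cells to 3912 to 5139 TPM and 2419 to 3287 TPM, and their part was not tested. From OMCD to IMCD, 11 genes were higher in OMCD, against 15.2% of all genes, and 1, Pcx, in IMCD, against 3.4%. The 11 were Hk1, Gpi1, Pfkl, Pfkm, Pfkp, Aldoa, Tpi1, Pgam2, Eno2, Ldhb and Khk, led by Pgam2, Ldhb and Pfkp, the last at 3.22 ± 0.21 log2 units (SE; limma adjusted p = 9.21e-17). Ldha, Gapdh, Pgk1, Pgam1, Aldoc and Pfkfb3 were not called, with differences of -0.20, -0.16, 0.21, 0.09, 0.15 and -0.13. Eno2 lost its call with a pseudocount of 5 (0.60), Aldoa without IMCD mouse 1 (0.97), and Aldoa and Gpi1 after rescaling (0.85 and 0.86), which moved the OMCD share of all called genes from 81.7% to 68.8%. Intercalated cell markers summed to 2419 to 3287 TPM in OMCD and 0.333 to 4.79 TPM in IMCD (5 and 0 of 5 at a mean of 1 TPM or more), leukocyte markers to 116 to 518 TPM and 4.99 to 5.56 TPM (6 and 1 of 6), and endothelial markers to 375 to 500.2 TPM and 21.6 to 304 TPM (6 and 4 of 6). Their part in these differences was not tested.

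The other genes of sugar metabolism, 44 listed from the pathway with earlier results of these data known, gave 42 that could be tested, while Gapdhs and Ldhc were below the filter. Between proximal and distal groups 8 were higher proximally, against 4.46% of all genes, 12 distally, against 15.3%, and 22 were not called. The genes higher proximally included the transporters for fructose, Slc2a5, at 6.78 ± 0.14 log2 units, and for glucose, Slc2a2, at 5.28 ± 0.15 (SE; limma adjusted p = 1.07e-36 and 4.8e-31). The largest distal differences were those of Slc16a7, a carrier of lactate and pyruvate, at -6.94 ± 0.13, Slc2a1, the glucose transporter of most cells, at -3.88 ± 0.11, and Pdk1, a kinase that inhibits pyruvate dehydrogenase, at -3.42 ± 0.13 (SE; limma adjusted p = 3.25e-38, 1.61e-31 and 2.97e-27). Mean levels over groups were 145 TPM of Slc2a5 in proximal and 0.333 TPM in distal groups, and 0.218 TPM of Slc16a7 in proximal and 312 TPM in distal groups.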

How the data were processed

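Poly(A) RNA of dissected glomeruli and tubule segments was amplified and sequenced (SMARTer V4 and Nextera XT, per the labels' protocols). The authors' deposited table holds TPM for 54532 genes, and the submitters' processing notes name STAR 2.5.4a and RSEM 1.3.0. The genome build is not given in the sources used here. The values carry no read counts, so the depth behind them is unknown, and no interval or floor was given.

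Pieces of a mouse and segment were averaged, giving 53 combinations of mouse and segment in 15 groups, each counted as a mouse. Sample titles give a mouse number with the segment, and whether a number in 2 segments marks the same animal is not stated. The p-values measure the spread between mice. A column of PTS2 matched no sample title and was kept as an unnumbered mouse, and 3 single-cell samples were not analysed here. The pairing of numbers was checked, and same-numbered mice of different segments had a median correlation of -0.002 over 290 pairs, against 0.002 over 1016 pairs with different numbers.

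A single limma 3.58.1 model (R 4.3.3) of log2(TPM + 1) over all 15 groups, tested on simulated data, was fitted to the 33793 genes that reached TPM of 1 in 3 or more mice. All members passed this filter. A gene was called at a Benjamini-Hochberg adjusted p under 0.05 over all tested genes and a log2 difference of at least 1. Differences on this scale understate the change of low genes. Tables were handled with Python 3.11.15 and pandas 2.3.3.

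The 34 genes were taken by name, and the members, marker lists and other pathway genes were chosen with earlier results of these data known. A result on 1 further gene is not reported here. The genes described mouse by mouse were those with the 5 largest differences in each direction between proximal and distal groups and Ldha, Ldhb, Pkm, Pklr, Hk1 and Hk2 by rule, and others such as Pcx after their values were seen, with ranges in place of single values in groups where a gene was low or varied little and over the 26 distal mice. The alternatives tried were a pseudocount of 0.1 or 5, no filter or 1 at TPM of 5, median ratio rescaling, averaging pieces before the log, protein-coding genes only, a replicate block, and leaving out single mice or ATL mice 4 and 6.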

Additional observations from a re-analysis of the deposited data

Results flagged for a closer look

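In groups of 4 or 5 mice, 1 mouse stood far from the others (Dixon's criterion at 95%) in 7 of the 115 groups tested, those with a mean of at least 10 TPM, and chance gives about 1 in 20. Fbp1 in CTAL mouse 2 was 46.9 TPM against 27.0 to 29.8 TPM in the other CTAL mice, and that mouse also had the highest sum of proximal markers in CTAL, 481 TPM. Pgk1 in ATL mouse 4 was 47.26 TPM against 69.7 to 72.7 TPM. Tpi1 in PTS2 mouse 5 was 980.5 TPM against 847 to 880 TPM, and Fbp2 in the same mouse was 12.29 TPM against 9.77 to 10.5 TPM. Pfkm in CCD mouse 5 was 86.8 TPM against 76.7 to 79.2 TPM, and Pfkfb2 in CCD mouse 2 was 17.41 TPM against 14.5 to 15.3 TPM. Pck2 in CTAL mouse 5 was 22.14 TPM against 15.8 to 17.5 TPM.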

How the results depend on the processing

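The number of members called kept within 1.5 times in every comparison and alternative except with a pseudocount of 5, which left 4 of 8 calls between MTAL and CTAL and 3 of 5 between CCD and OMCD. No call changed direction. Of 132 calls over all comparisons, 96 held in every alternative and 36 were lost in at least 1. Leaving out each mouse in turn gave 34 to 34 members differing among the 15 groups, 21 to 22 between proximal and distal groups, 8 to 8 for PTS1 and PTS2, 5 to 6 for PTS2 and PTS3, 24 to 26 for PTS3 and DTL2, 7 to 9 for DTL2 and DTL3, 15 to 19 for DTL3 and ATL, 15 to 19 for ATL and MTAL, 7 to 8 for MTAL and CTAL, 4 to 5 for CTAL and DCT, 4 to 5 for CCD and OMCD and 11 to 12 for OMCD and IMCD. A filter at TPM of 5 left 32 members that could be tested. The fit without glomeruli and thin limbs, and the fits without DCT mouse 1 and CTAL mouse 2 or without the 5 distal mice richest in proximal markers, were chosen after seeing the data, and each left 21 members called between proximal and distal groups. Sequencing depth is unknown, so the precision of low values cannot be stated.

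The mouse numbers were not taken to pair the mice, because whether they mark the same animals is not stated. Not every same-numbered pair correlated above 0.1, but this cannot decide the question, since segments of 1 animal need not all correlate so. Of same-numbered pairs from different segments 12.4% correlated above 0.1, against 8.07% of pairs with different numbers, and the medians were -0.002 and 0.002. With the number as a replicate block, 34 members differed among the groups and 21 between proximal and distal groups, and the pairs along the tubule gave 9, 6, 25, 8, 17, 16, 7, 5, 5 and 12 calls in the order above. Under the block Pck1 (0.69) and Khk (-0.98) between ATL and MTAL, and Pfkm (-0.95) between MTAL and CTAL, were not called.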

Other observations

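Genes whose symbols mark them as pseudogenes or related sequences of a member, which can share reads with it, were low beside the members. Their summed level per mouse reached at most 0.58 TPM for Aldoa, 4.43 TPM for Gapdh, 1.37 TPM for Pgk1, 5 TPM for Pgam1 and 17.1 TPM for Ldha. The lowest levels of these genes in any mouse were 591, 376, 37.5, 20.7 and 388 TPM.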
